A study of Mus musculus with 6 samples.

Results

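A set of 10 named genes of innate microbial sensing were followed in mouse ear skin at the site of a tick bite: Tlr1, Tlr2, Tlr3, Tlr4, Tlr7, Cd14, Myd88, Nod1, Nlrp3 and Clec7a. They were chosen by name, as the rows of the deposited expression table that carry these symbols, and all 10 were found among its 15667 genes. RNA had been sequenced from 3 mice with intact adiponectin alleles (WT, Adipo+/+) and from 3 littermates homozygous for a null allele (KO, Adipo-/-), each carrying the label tick bite. The strain was B6;129-Adipoq tm1Chan/J, so both groups share a mixed background, and the mice were young adult females. The null allele removes adiponectin, a hormone of fat cells, from the whole animal. Each library came from a punch biopsy of whole skin, and unbitten skin was not analysed here.

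Pattern recognition receptors bind molecules that microbes or damaged cells expose. Toll-like receptors sit on the cell surface or in endosomes and, apart from Tlr3, signal through the adaptor Myd88 to NF-kappaB, which turns on inflammatory genes. Nod1 and Nlrp3 work in the cytosol, and Clec7a (dectin-1) is a surface lectin that binds beta-glucan. In skin such receptors are made by macrophages, neutrophils and dendritic cells, and several of them also by keratinocytes and fibroblasts.

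Levels are counts per 1000000 reads (CPM), and values of 3 libraries are listed in the order of replicates 1, 2 and 3. KO was compared with WT by limma on log2(CPM + 0.5), and p-values were adjusted by the Benjamini-Hochberg method over the 14306 genes that averaged 1 CPM or more. Fold changes are on this log2 scale, and those of low genes come out smaller than in CPM. All 10 receptor genes passed the filter, with means over the 6 libraries from 4.09 CPM (Tlr1) to 67.0 CPM (Nod1). No receptor gene differed between KO and WT skin at an adjusted p below 0.05 by limma, where 0.014% of all genes did. Each of the 10 had an adjusted p of 0.998. At an unadjusted p below 0.05 the count was also 0 of 10, against a background of 1.82% of all genes lower and 1.06% higher in KO. By direction alone 7 of the 10 were lower in KO and 3 were higher. Their median log2 fold change was -0.142, beside -0.032 for all genes tested, of which 8104 were lower and 6200 higher.

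The targeted gene matched all 6 labels. Adipoq was at 30.5, 63.7 and 49.6 CPM among WT libraries, against 0, 0.561 and 0 CPM among KO libraries, where it rested on 0, 2 and 0 reads (adjusted p = 0.00322 by limma). Depth implied by the smallest steps of the values was 3403753 to 6591470 reads per library, so that 3 reads corresponded to 0.455 to 0.881 CPM. Markers of skin were present throughout, with a summed level of 24230 to 43280 CPM for the 8 keratinocyte markers in the table. A pair of WT libraries stood apart. WT replicate 1 held the highest sum of neutrophil markers (625 CPM, against 71.7 to 241 CPM in the other 5 libraries). WT replicate 3 held the highest sum of hair follicle markers (24500 CPM, against 53.5 to 9708 CPM), the lowest neutrophil sum and, among the WT libraries, the lowest macrophage sum. The hair follicle sum was 53.5 and 70.6 CPM in WT replicates 1 and 2, against 1988, 9708 and 1064 CPM among KO libraries. A fit without WT replicate 3 thus also sets skin low in hair follicle markers (WT) against skin with higher sums (KO). The plot of differences shows each receptor gene with all libraries, without WT replicate 1 and without WT replicate 3.

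**Figure D1:**
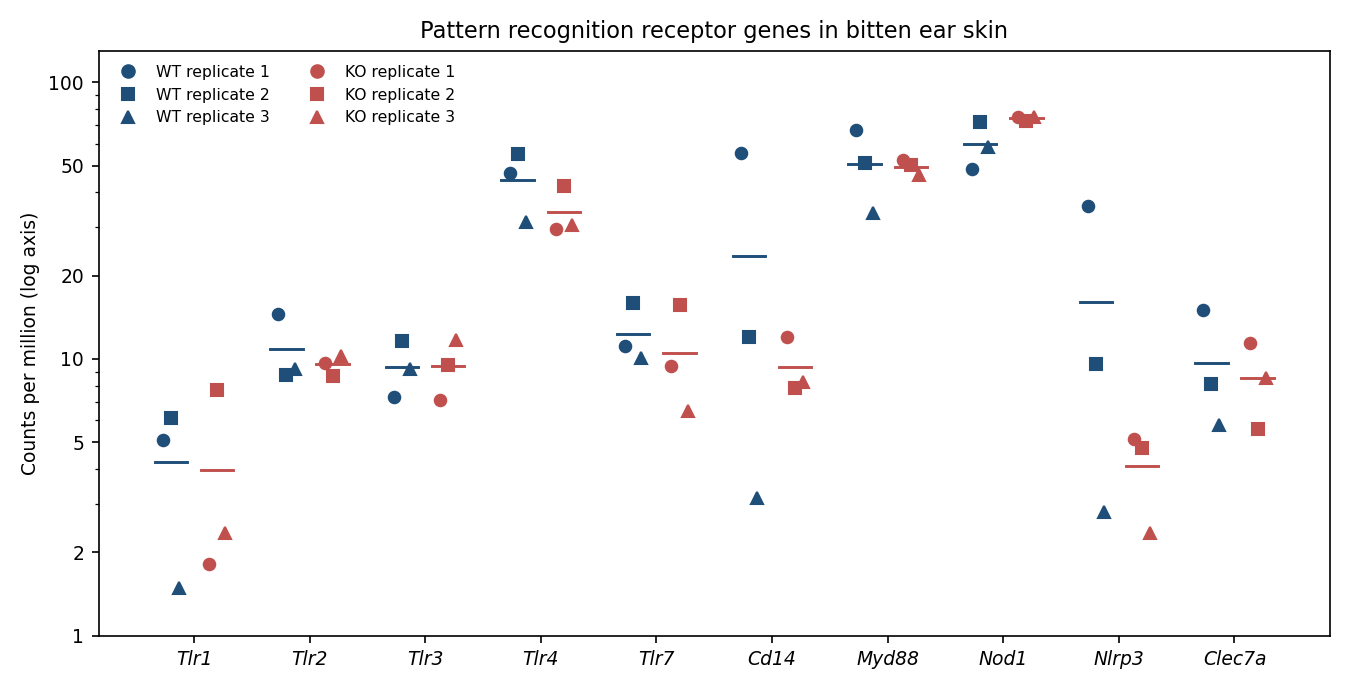
CPM (log axis) of the 10 receptor genes in each of the 6 libraries, WT in blue and KO in red, with the mean of each group as a line. The KO values of Nod1 (72.6 to 75.2 CPM) lie above all 3 WT values, and those of the other 9 genes overlap the WT range, which is widest for Cd14 and Nlrp3.

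Surface toll-like receptors were examined first. Tlr2, which recognises bacterial lipoproteins, including those of spirochetes, together with Tlr1 or Tlr6, lies on chromosome 3 (83836272 to 83841608, minus strand, GRCm38). The study measured it by quantitative PCR at the bite site as well, in more mice per group than were sequenced, and reported higher expression in WT than in KO mice. The amplified stretch is printed because it shows which part of the transcript that assay reads. It covers chr3:83836815-83836893 (GRCm38, minus strand), 79 bases in coding sequence of exon 3 of 3, and neither primer matched a transcript of another gene in GENCODE M21. Capitals mark the primer sites.
Tlr2 amplicon: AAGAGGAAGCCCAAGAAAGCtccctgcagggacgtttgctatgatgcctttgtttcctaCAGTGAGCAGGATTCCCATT

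Tlr2 was at 14.5, 8.75 and 9.23 CPM among WT libraries, against 9.71, 8.69 and 10.3 CPM among KO libraries. WT replicate 1 was the highest of the 6 libraries, and the other 5 lay close together with the groups overlapping. WT averaged 10.8 ± 3.20 CPM, against 9.56 ± 0.808 CPM for KO (± SD, 3 libraries each). The log2 fold change was -0.14 (SE 0.24, unadjusted p = 0.581 by limma). Its 95% interval, from -0.70 to 0.42, covers ratios of KO to WT from 0.615 to 1.34. The KO libraries held 64, 31 and 35 Tlr2 reads, and their spread was below counting noise (chi-square per degree of freedom 0.242), whereas that of the WT libraries was above it (4.36). Without WT replicate 1 the log2 fold change was 0.08.

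Tlr1, the partner of Tlr2 for triacylated lipoproteins (chromosome 5, 64924680 to 64933558, minus strand), was the lowest of the 10 genes. It was at 5.08, 6.11 and 1.48 CPM among WT libraries, against 1.82, 7.71 and 2.35 CPM among KO libraries. Low and high libraries occurred in both groups, and the log2 fold change of -0.14 (SE 0.62) had a 95% interval from -1.57 to 1.28. The lowest value rested on 9 reads. The log2 fold change was 0.06 without WT replicate 1 and -0.68 without WT replicate 3, so no direction can be given for Tlr1.

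Tlr4, the lipopolysaccharide receptor (chromosome 4, 66827551 to 66846581, plus strand), had the highest level of the 5 toll-like receptors, also per length. It was at 47.0, 54.9 and 31.3 CPM among WT libraries, against 29.6, 42.0 and 30.6 CPM among KO libraries. WT replicates 1 and 2 were above every KO library, while WT replicate 3 lay within the KO range. WT averaged 44.4 ± 12.0 CPM, against 34.1 ± 6.93 CPM for KO, with a log2 fold change of -0.36 (SE 0.23, 95% interval -0.90 to 0.18, unadjusted p = 0.163 by limma). Without WT replicate 3 it was -0.59, with an unadjusted p of 0.0149 and an adjusted p of 0.742 by limma.

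Cd14 encodes the co-receptor that hands lipopolysaccharide and lipoproteins to Tlr4 and Tlr2, and monocytes, macrophages and neutrophils carry it (chromosome 18, 36725064 to 36726815, minus strand). It was at 55.4, 12.0 and 3.13 CPM among WT libraries, against 12.0, 7.85 and 8.23 CPM among KO libraries. The highest and the lowest of the 6 values were both WT libraries, with 229 and 19 reads, and differed 17.7-fold, while the KO libraries lay between them and differed 1.53-fold. Only 1.38% of the genes tested had a WT range as wide or wider, with 0.5 CPM added to each value. The log2 fold change was -0.49 (SE 0.84, 95% interval -2.44 to 1.46). It was 0.52 without WT replicate 1 and -1.45 without WT replicate 3, the latter with an unadjusted p of 0.0254 by limma, so the data give no direction for Cd14.

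The endosomal receptors were measured at similar levels. Tlr3, which binds double-stranded RNA (chromosome 8, 45395665 to 45410619, minus strand), was at 7.26, 11.6 and 9.23 CPM among WT libraries, against 7.13, 9.53 and 11.8 CPM among KO libraries. The groups covered nearly the same range, and the log2 fold change was 0.01 (SE 0.27, 95% interval -0.60 to 0.63). Tlr7, which binds single-stranded RNA (chromosome X, 167304926 to 167330571, minus strand), was at 11.1, 15.9 and 10.1 CPM among WT libraries, against 9.41, 15.7 and 6.46 CPM among KO libraries. Replicate 2 was the highest library of both groups, KO replicate 3 the lowest of all 6, with 22 reads, and the log2 fold change was -0.28 (SE 0.33, 95% interval -1.06 to 0.49). Without KO replicate 3 it was 0.01.

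Myd88, the adaptor of most toll-like receptors and of the interleukin-1 receptor (chromosome 9, 119335934 to 119340018, minus strand), was at 67.3, 51.1 and 33.8 CPM among WT libraries, against 52.5, 50.2 and 46.1 CPM among KO libraries. As with Cd14, the KO libraries lay inside the WT range. The log2 fold change was 0.02 (SE 0.23, 95% interval -0.52 to 0.56), which leaves room for ratios from 0.699 to 1.47. Without WT replicate 1 it was 0.25, and without WT replicate 3 it was -0.24.

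Next, the cytosolic sensors and the lectin were examined. Nod1, which senses peptidoglycan fragments and is made by epithelial cells as well as by immune cells (chromosome 6, 54923942 to 54972612, minus strand), was at 48.7, 72.0 and 58.2 CPM among WT libraries, against 75.1, 72.6 and 75.2 CPM among KO libraries. All 3 KO values were above all 3 WT values, though WT replicate 2 and KO replicate 2 were almost equal, with 354 and 259 reads. It was the sole receptor gene whose groups did not overlap, where 2.95% of all genes lay wholly higher and 4.89% wholly lower in KO. WT averaged 59.6 ± 11.7 CPM, against 74.3 ± 1.49 CPM for KO, a log2 fold change of 0.33 (SE 0.15, 95% interval -0.02 to 0.68, unadjusted p = 0.0595 by limma). The KO libraries differed by less than counting noise (chi-square per degree of freedom 0.116), and 98.5% of the genes tested had a KO range as wide or wider. Nod1 was higher in KO under all 17 alternatives, by 0.20 without WT replicate 1 to 0.48 without WT replicate 2. Its unadjusted p was 0.0353 after rescaling by the median of ratios, 0.0385 after quantile normalization, 0.0391 with the ribosomal RNA gene Rn45s left out of the total and 0.0106 without WT replicate 2, and its adjusted p stayed at 0.954 or above.

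Nlrp3, the sensor of the inflammasome that activates caspase-1 and so matures interleukin-1 beta (chromosome 11, 59541569 to 59566953, plus strand), was at 35.8, 9.56 and 2.80 CPM among WT libraries, against 5.16, 4.76 and 2.35 CPM among KO libraries. WT replicates 1 and 2 were above every KO library, and WT replicate 3 lay within the KO range. The reads behind these values were 148, 47 and 17 in WT and 34, 17 and 8 in KO. WT averaged 16.1 ± 17.4 CPM, against 4.09 ± 1.52 CPM for KO, and the log2 fold change of -1.28 was the lowest of the 10 (SE 0.78, 95% interval -3.07 to 0.52, unadjusted p = 0.140 by limma). Its size rested on single libraries, since it was -0.39 without WT replicate 1 and -2.12 without WT replicate 3, the latter with an unadjusted p of 0.00374 and an adjusted p of 0.412. Nlrp3 was lower in KO under all 17 alternatives. With 0.5 CPM added to each value, 1.68% of the genes tested had a WT range as wide or wider.

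Clec7a (chromosome 6, 129461591 to 129472785, minus strand) was at 15.0, 8.14 and 5.77 CPM among WT libraries, against 11.4, 5.60 and 8.52 CPM among KO libraries. Replicate 1 was the highest of each group, and the groups overlapped over most of their range. The log2 fold change was -0.12 (SE 0.39, 95% interval -1.01 to 0.77), with 0.24 when WT replicate 1 was left out and -0.41 when WT replicate 3 was.

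**Figure D2:**
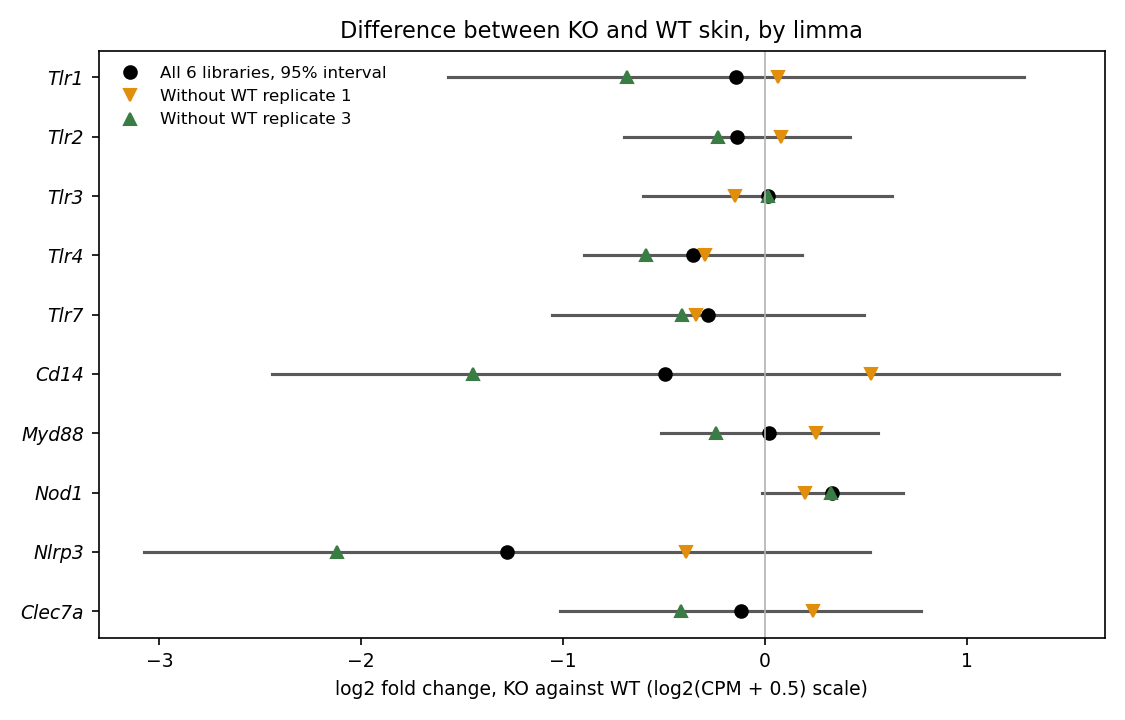
Log2 fold change of KO against WT (black points) with its 95% interval (lines) for the 10 receptor genes, and the values without WT replicate 1 (orange) or WT replicate 3 (green). All 10 intervals include 0, and for Cd14 the value moved from 0.52 to -1.45 with the library left out.

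Levels were then set on a common scale, as mean CPM per kilobase of exon over the 6 libraries. The order was Myd88 (25.6), Nod1 (15.2), Cd14 (10.02), Tlr4 (7.18), Clec7a (3.97), Tlr2 (3.38), Tlr7 (2.89), Nlrp3 (2.48), Tlr3 (2.10) and Tlr1 (1.31 CPM per kilobase). Myd88 and Nod1 were the only neighbours in this order whose ranges over the libraries did not overlap. Tlr4 was above Clec7a within each of the 6 libraries. Cd14 was above Tlr4 in 2 of the 6 libraries, and Nlrp3 was above Tlr3 in 1, WT replicate 1, so neither gene was above its neighbour in most libraries. Per length and on average, the adaptor was measured above each receptor, and the sensor of peptidoglycan above the receptors for lipopolysaccharide and lipoprotein.

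Except for Nod1, the levels of WT and KO libraries overlapped, and the receptor genes were next compared library by library. WT replicate 1 was the highest library for 5 of the 10 genes, and WT replicate 3 was the lowest for 3. These patterns were compared with the marker sums of cell types, as a description over 6 libraries that share their depth and marker levels with the genes compared. In bulk skin, fewer cells of a type and less RNA per cell cannot be told apart. Cd14 ran with the neutrophil markers (Pearson r = 0.984, Spearman rho = 0.943, and r = 0.972 without WT replicate 1). The neutrophil sum was 625, 241 and 71.7 CPM among WT libraries, against 237, 136 and 132 CPM among KO libraries, so that the ratio of Cd14 to it differed at most 2.03-fold between libraries, against 17.7-fold for Cd14 itself.

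Myd88 (r = 0.947 with all libraries, 0.907 without WT replicate 1) and Nlrp3 (r = 0.919 and 0.763) followed the neutrophil sum as well, and Clec7a did so less closely (r = 0.884 and 0.734). Cd14, Nlrp3, Myd88 and Clec7a also ran opposite to the hair follicle sum (r = -0.821, -0.772, -0.762 and -0.735), Cd14 with a rho of -0.943. The ratio to the neutrophil sum differed more between libraries than CPM did for Myd88 (4.37-fold against 1.99-fold) and Clec7a (3.35-fold against 2.68-fold), and less for Nlrp3 (3.22-fold against 15.2-fold). S100a8, an alarmin listed as a neutrophil marker, was at 143, 49.4 and 5.11 CPM among WT libraries, against 41.0, 14.3 and 15.0 CPM among KO libraries. S100a9, also listed, was at 273, 69.2 and 4.62 CPM among WT libraries, against 80.4, 24.7 and 20.3 CPM among KO libraries. Together S100a8 and S100a9 supplied most of the neutrophil sum of WT replicate 1, but little of that of WT replicate 3. Which cells made these transcripts was not tested. Of the 12 neutrophil markers 9 were in the table and 8 were tested, 5 of them lower in KO, and none separated the groups. The study also measured cells of the bite site by flow cytometry. It reported more neutrophils and macrophages, as shares of leukocytes, in WT than in KO mice. Il1b, whose product the Nlrp3 inflammasome matures and which was chosen after its values were seen, was at 68.0, 11.8 and 1.48 CPM among WT libraries, against 20.3, 8.69 and 6.76 CPM among KO libraries. The part of neutrophil number or of hair follicle content in the levels of these genes was not tested.

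Tlr4, Tlr1 and Tlr7 ran with the 14 macrophage markers, whose sum was 923, 1274 and 656 CPM among WT libraries, against 611, 1189 and 756 CPM among KO libraries. Pearson r over the 6 libraries was 0.898 for Tlr4 (0.938 without WT replicate 1), 0.954 for Tlr1 (0.968) and 0.785 for Tlr7 (0.786). The same genes also ran with the 8 mast cell markers (r = 0.725 for Tlr4, 0.751 for Tlr1 and 0.587 for Tlr7), and for Tlr7 Spearman rho was 0.886 with these and 0.829 with the macrophage markers. Of the 14 macrophage markers 11 were lower in KO, beside 8104 of all 14306 genes tested. In KO 0 of them lay wholly below WT and 1 wholly above, where 4.89% and 2.95% of all genes did. The sums of the groups overlapped. The macrophage markers Csf1r and Cd68 were at 103 to 165 CPM and at 21.6 to 61.2 CPM over the 6 libraries, so neither defining marker was near 0 in any of them.

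Per 1000 CPM of macrophage markers, Tlr4 was at 50.9, 43.1 and 47.7 among WT libraries, against 48.4, 35.4 and 40.4 among KO libraries. Its coefficient of variation over the 6 libraries was 13.1% on this scale and 26.6% in CPM. The ratio narrowed the spread of Tlr4, and the groups still overlapped. With the macrophage marker score as a covariate the log2 fold change of Tlr4 was -0.26, with an unadjusted p of 0.126 by limma.

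Tlr2 had a positive r with neither sum once WT replicate 1 was left out. Its r was -0.146 with the macrophage markers (-0.736 without WT replicate 1) and 0.735 with the neutrophil markers (-0.072 without WT replicate 1). Per 1000 CPM of macrophage markers Tlr2 was at 15.7, 6.87 and 14.1 among WT libraries, against 15.9, 7.31 and 13.6 among KO libraries. Replicate 2 was the low one in both groups, where the macrophage sum was highest. The log2 difference of this ratio was 0.02 (exact two-sided permutation test, p = 0.9, where 0.1 is the smallest p that 3 against 3 libraries allow). On this scale all 10 receptor genes overlapped between WT and KO.

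The tested genes whose pattern over the 6 libraries was most like that of Tlr2 were Sema4d (r = 0.986), Zfp593 (0.980), Srbd1 (0.976) and Lsm8 (0.972). Each was highest in WT replicate 1, and without that library r was 0.857, 0.921, 0.911 and 0.732. Among pairs of receptor genes, Cd14 and Myd88 were alike (r = 0.947, 0.964 without WT replicate 1), as were Tlr1 and Tlr4 (0.868 and 0.859) and Tlr4 and Tlr7 (0.786 and 0.844). The likeness of Cd14 and Nlrp3 (0.915) was 0.649 without WT replicate 1. Nod1 had a rho of 0.714 with the keratinocyte sum (r = 0.575, and 0.882 without WT replicate 1). With the fibroblast sum its rho was 0.657 (r = 0.575, and 0.304 without WT replicate 1). Against the neutrophil sum r was -0.412 for Nod1, but 0.785 without WT replicate 1. The keratinocyte sum was 31780, 35100 and 24230 CPM among WT libraries, against 40040, 30110 and 43280 CPM among KO libraries. Of its 8 markers 0 were lower in KO, and none separated the groups. The part of keratinocyte content in the Nod1 level was not tested.

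**Figure D3:**
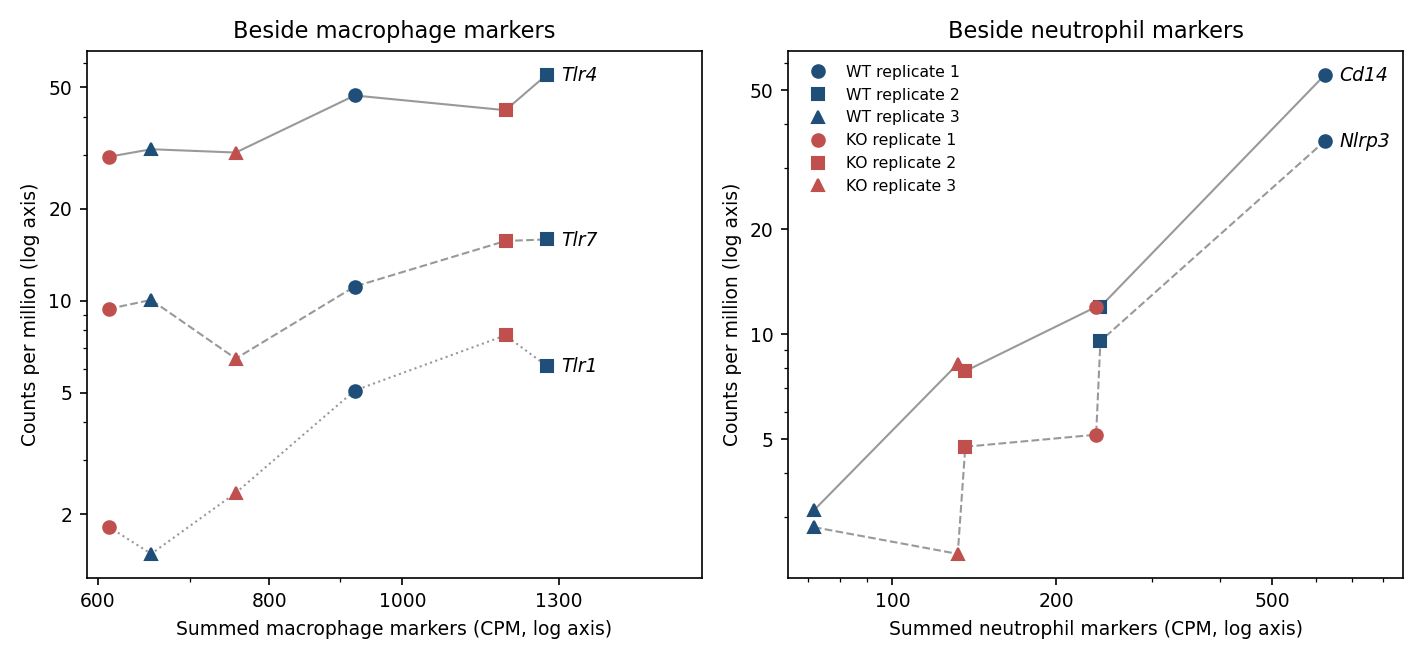
CPM of Tlr4, Tlr7 and Tlr1 against the summed macrophage markers (left) and of Cd14 and Nlrp3 against the summed neutrophil markers (right), both axes log, 1 point per library, grey lines joining the points of a gene from the lowest to the highest sum. Tlr4, Tlr7 and Tlr1 are high where the macrophage sum is high (1189 and 1274 CPM), and Cd14 and Nlrp3 are highest in WT replicate 1 (neutrophil sum 625 CPM), with libraries of both genotypes along each line.

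Promoters were searched for short motifs of factors that act in myeloid cells and inflammation, because several of the receptor genes varied together. RefSeq promoters (GRCm38.p6), taken as the 250 bases before a start, were at hand for 7 of the 10 genes, with 11 starts in all, and both strands were read. The NF-kappaB consensus occurred in 7.25% of the 32851 promoters of the whole table and in those of Tlr2, Nlrp3 and Tlr3. The Tlr3 match lies before an inner start, inside the listed gene. An ISRE core (GAAA, any 2 bases, GAAA) was present in the Myd88 promoter (2.98% of all promoters) and a PU.1 core, GAGGAAGT, in a Tlr1 promoter (2.44%). No receptor promoter held the AP-1 motif TGANTCA (6.75%). The windows of 30 bases are shown to let the matches, in capitals, be compared. The match starts 173 bases before a RefSeq start in Tlr2 (chr3:83841761-83841790, minus strand) and 186 bases before one in Nlrp3 (chr11:59541373-59541402, plus strand). It starts 40 bases before a RefSeq start in Myd88 (chr9:119340039-119340068, minus strand) and 23 bases before one in Tlr1 (chr5:64933563-64933592, minus strand). The Tlr2 and Tlr1 matches lie outside the listed genes, but within RefSeq spans that reach 83841824 (Tlr2) and 64933600 (Tlr1). Both matches thus lie before an inner start.
Tlr2, NF-kappaB: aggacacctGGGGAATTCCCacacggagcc
Nlrp3, NF-kappaB: ggcttctgcaGGGAACCCCCgggaattctg
Myd88, ISRE core: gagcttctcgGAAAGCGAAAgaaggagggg
Tlr1, PU.1 core: attaaatgttgGAGGAAGTaggagcttgaa
The Tlr2 match is 2 overlapping occurrences of the 10-base consensus, 1 base apart. These matches are letters in a sequence and were not measured as binding sites here. Among the genes with the NF-kappaB motif, the WT libraries of Tlr2 spread 1.66-fold and those of Nlrp3 12.8-fold in CPM. The WT libraries of Tlr3, which also has the motif, spread less than those of Tlr2. The part of these motifs in the levels of the genes was not tested.

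To place the receptor genes in their pathways, 123 further genes were listed by role, of which 118 were in the table and 111 were tested. None passed the adjusted threshold by limma, and 60 were lower and 51 higher in KO, with a median log2 fold change of -0.034. At an unadjusted p below 0.05, 4 were lower and 0 higher in KO, against a background of 1.82% and 1.06% of all genes. KO values lay wholly below WT for 1 gene (Atf3) and wholly above for 1 (Naip5), where 4.89% and 2.95% of all genes did so.

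Among the other toll-like receptors 5 of 7 were tested, 4 lower and 1 higher in KO, with a median of -0.280. Tlr8, a receptor of RNA, had a log2 fold change of -0.49 (unadjusted p = 0.124 by limma), and Tlr13, a receptor of bacterial ribosomal RNA, had 0.07. Of the 7 accessory proteins 5 were lower and 2 higher, and these included Lbp (-0.37), which carries lipopolysaccharide to Cd14, and Ly96 (0.33), the partner of Tlr4 that binds it. Ly96 was low, at 1.21 to 3.36 CPM, and had 0.077 without WT replicate 1. Without WT replicate 3 Tlr8 had -0.72 (unadjusted p = 0.0284 by limma).

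Of the 20 adaptors and kinases 15 were higher and 5 lower in KO, with a median of 0.044, and none passed an unadjusted p of 0.05. Irak1, a kinase bound by Myd88, had a log2 fold change of 0.19, and Tirap, which links Myd88 to Tlr2 and Tlr4, had -0.23. Of the 10 NF-kappaB and IRF factors 7 were higher and 3 lower, with Rel at 0.15 and Irf3 at -0.27. The adaptor and kinase list covers genes that most cells express, and its counts were read beside 6200 higher genes of 14306 in all.

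The feedback inhibitors held 3 of the 4 pathway genes at an unadjusted p below 0.05, all lower in KO, as were 1.82% of all genes. Tnfaip3 (A20), a ubiquitin-editing inhibitor of NF-kappaB, was at 83.0, 58.6 and 47.8 CPM among WT libraries, against 42.6, 48.2 and 36.4 CPM among KO libraries (log2 fold change -0.54, SE 0.21, unadjusted p = 0.0342, adjusted p = 0.998). Nfkbia, which holds NF-kappaB in the cytosol, was at 169, 145 and 110 CPM among WT libraries, against 131, 83.5 and 75.2 CPM among KO libraries (-0.57, SE 0.23, unadjusted p = 0.0425). Atf3, a repressor that toll-like receptors induce, was at 24.2, 31.9 and 36.9 CPM among WT libraries, against 23.8, 23.3 and 18.2 CPM among KO libraries (-0.49, SE 0.20, unadjusted p = 0.0383). The Tnfaip3 and Nfkbia values overlapped between groups, through WT replicate 3 in both, and those of Atf3 were separated by a narrow gap. All 11 inhibitors were tested, 7 lower and 4 higher. Zc3h12a, a ribonuclease that degrades cytokine transcripts, had 0.32, and 0.15 without WT replicate 3. Without WT replicate 1 Zc3h12a had 0.54, with an unadjusted p of 0.0094 and an adjusted p of 0.954 by limma. Tnfaip3 was at -0.33 without WT replicate 1, where Nfkbia was at -0.43 (unadjusted p = 0.135 by limma). Atf3 was at -0.36 without WT replicate 3 (unadjusted p = 0.126 by limma). Each of these 3 genes was past an unadjusted p of 0.05 in 2 of the 6 fits that left out a library. The median of the list was -0.055, close to that of all genes, and none of the 3 passed the adjustment by limma.

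In the NOD-like receptor list 11 of 16 genes were tested, 6 higher and 5 lower, with a median of 0.10. Naip5, a receptor for flagellin, was at 3.39, 3.39 and 1.23 CPM among WT libraries, against 3.49, 3.51 and 5.88 CPM among KO libraries (0.66, SE 0.42), on 7 to 23 reads a library. Leaving out WT replicate 3 gave 0.26 for Naip5. Xiap, which acts with Ripk2 below Nod1 and Nod2, had -0.09. Of the 12 inflammasome genes 8 were lower and 4 higher. Pycard (ASC), which joins Nlrp3 to caspase-1, had the smallest p of this list, at 53.7, 66.3 and 54.1 CPM among WT libraries, against 84.1, 59.1 and 77.9 CPM among KO libraries (0.33, SE 0.16, unadjusted p = 0.0752 by limma). Without KO replicate 2 Pycard had 0.48 (unadjusted p = 0.0144 by limma), and without WT replicate 2 it had 0.43 (unadjusted p = 0.0482 by limma). Pycard and Nlrp3 thus had fold changes of opposite sign, neither past the threshold with all libraries. P2rx7, the ATP receptor that triggers Nlrp3, had -0.30, and -0.50 without KO replicate 2 (unadjusted p = 0.0434 by limma).

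C-type lectins and their partners had 12 lower and 4 higher genes among the 16 tested of 18, with a median of -0.193. Cd209a, a lectin of dendritic cells, was at 8.23, 8.54 and 4.29 CPM among WT libraries, against 2.12, 5.89 and 3.82 CPM among KO libraries (-0.79, SE 0.41, unadjusted p = 0.0888 by limma). Cd207 (langerin), the lectin of Langerhans cells, had 0.27. The 9 RNA and DNA sensors were split 4 to 5 with a median of 0.014, including Ifi204 (-0.35) and Eif2ak2 (0.18). Without WT replicate 3 these had -0.68 (unadjusted p = 0.0443 by limma) and 0.021. Cd209a had -1.09 without that library (unadjusted p = 0.0265 by limma).

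Of the 13 peptidoglycan, formyl peptide and scavenger receptors 10 were tested, 7 lower and 3 higher. Cd36, a scavenger receptor and fatty acid transporter that adipocytes, macrophages and endothelial cells make, was at 117, 146 and 133 CPM among WT libraries, against 76.6, 131 and 69.3 CPM among KO libraries (-0.57, SE 0.23, unadjusted p = 0.0397, adjusted p = 0.998 by limma). KO replicate 2 lay within the WT range, and without it Cd36 was at -0.84. Cd36 too was past an unadjusted p of 0.05 in 2 of the 6 fits that left out a library. The adipocyte marker sum was likewise low in KO replicates 1 and 3 (489 and 587 CPM) and higher in KO replicate 2 (1146 CPM) and WT (849 to 1267 CPM), and its part in the Cd36 level was not tested. This sum includes Adipoq, the targeted gene. Of its 12 markers 12 were lower in KO, beside 8104 of all 14306 genes tested. Marco, a macrophage scavenger receptor at 0.330 to 4.76 CPM, had 0.93 (SE 0.58), and 0.40 without KO replicate 2.

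**Figure D4:**
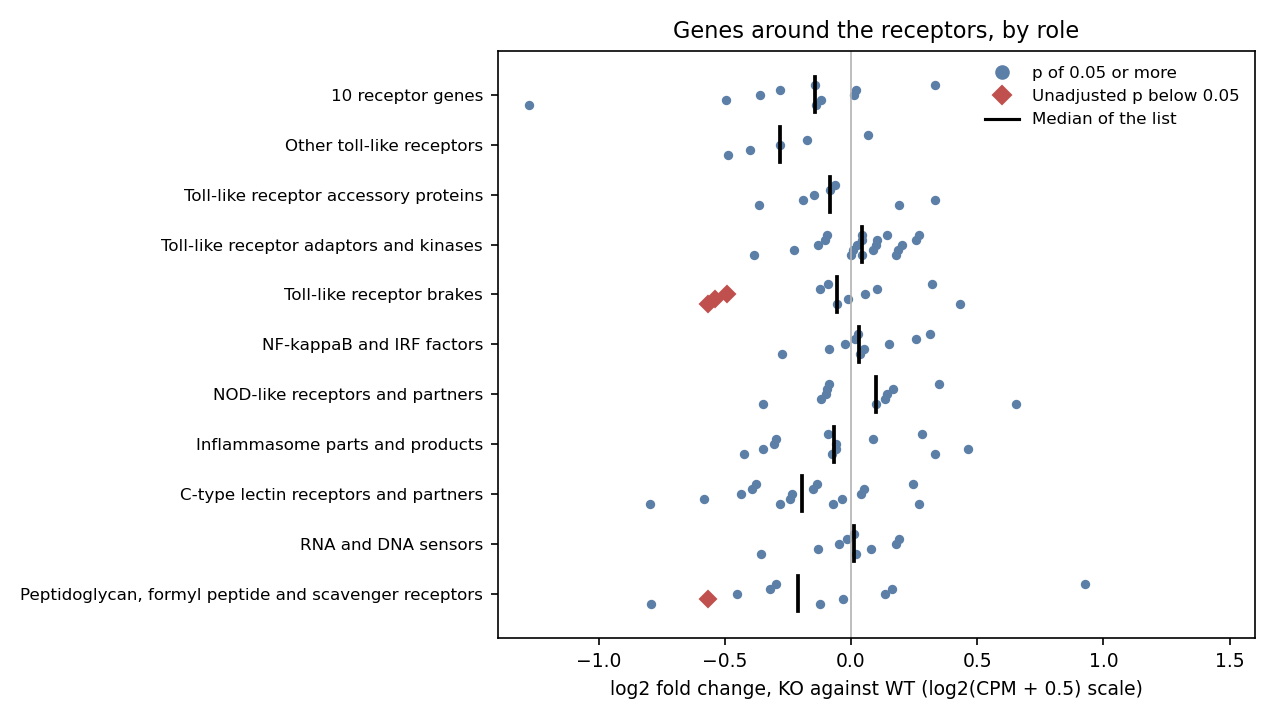
Log2 fold change of KO against WT for the 10 receptor genes and the 111 tested pathway genes, by list, with the median of each list as a black bar and genes at an unadjusted p below 0.05 as red diamonds. The 4 diamonds are Nfkbia, Tnfaip3 and Atf3 among the inhibitors (labelled brakes) and Cd36 in the last list, all lower in KO and none past the adjusted threshold.

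The 7 listed genes under a mean of 1 CPM were Tlr11, Nlrc4, Nlrp1a, Clec9a, Clec1b, Fpr1 and Fpr2. Fpr1 and Fpr2, formyl peptide receptors of neutrophils, ranged from 0 to 3.15 CPM and from 0 to 3.87 CPM over the 6 libraries. These genes were not tested. Tlr12, Nlrp6, Nlrp12, Naip1 and Fpr3 were not analysed here.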

How the data were processed

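RNA of bitten ear skin was sequenced from 3 WT and 3 KO mice, 1 library per mouse, grouped by the label of each sample. The authors trimmed the reads, aligned them to mm10 with STAR (2.7.3a) and used the expectation-maximization quantification of Partek, which can divide a read among genes (methods of the study and the submitters' processing notes). The deposited values are CPM, scaled to the total of each library with an offset of 0.0001 added. Use of read strand was not given in the sources used here. No other gene of the table overlaps a receptor gene. Depth was worked out from the smallest steps of the values. Whole reads, within 0.1, made up 91.6% to 92.9% of the low values checked, all of about 20 reads or fewer. Reads are therefore estimates, and no count model was fitted. Read counts and chi-square values cover counting error only, whereas the 95% intervals are limma intervals from the spread between libraries.

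Values were compared as log2(CPM + 0.5) with limma 3.58.1 (R 4.3.3, lmFit, and eBayes with a trend), two-sided, on the 14306 genes that averaged 1 CPM or more, and checked on simulated data. The 10 receptor genes, the pathway lists and the marker lists were chosen with earlier results of these data known. Named genes were every receptor gene, Adipoq, the gene of smallest unadjusted p in each direction of each pathway list, all listed genes at an unadjusted p below 0.05 and the 5 genes most like Tlr2 by Pearson r, 1 of which is not reported here. Others were chosen after their values were seen, among them marker genes. Alternatives were pseudocounts, filters, scalings, limma settings, a replicate block, a macrophage covariate and leaving out each library, 17 in all. Exon lengths came from GENCODE M21 and promoters from RefSeq (GRCm38.p6), which held none for Tlr4, Tlr7 and Cd14. Positions are those of the table, with listed ends lowered by 1.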

Additional observations from a re-analysis of the deposited data

How the results depend on the processing

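Of 10 receptor genes, 0 passed an unadjusted p of 0.05, and 1 did after rescaling by the median of ratios, after quantile normalization, with the total without Rn45s (Nod1 in each) or with the replicate number as a block (Nlrp3, limma p of 0.0405). Leaving out 1 library gave 0 to 3, the 3 being Tlr4, Cd14 and Nlrp3 without WT replicate 3, and no receptor gene passed the adjusted threshold in any of the 17 alternatives. Pathway genes at an unadjusted p numbered 4, but 2 after quantile normalization, 1 without the trend and 2 with the macrophage covariate, and 0 (without KO replicate 3) to 10 (without WT replicate 3) with 1 library left out. Genes of the whole table past the adjusted threshold numbered 2, and 0 (without WT replicate 2) to 16 (without WT replicate 3) with 1 library left out. At an unadjusted p, 260 genes were lower and 152 higher, with 414 lower under the replicate block, 147 without WT replicate 2 and 395 without WT replicate 3, and with 232 higher after quantile normalization, 313 without WT replicate 3 and 89 without KO replicate 3. The share of lower genes among these was 63.1%, but 50.6% after the median of ratios and 45.4% after quantile normalization. Deviations of same-numbered WT and KO libraries had an r across genes of 0.376, -0.306 and -0.222, where the other pairs had -0.382 to 0.449. The labels do not say that the numbers pair mice. With 3 libraries in each group these values cannot decide it. With 1 library left out the log2 fold change ranged from -0.70 to 0.21 for Tlr1, -0.27 to 0.082 for Tlr2, -0.15 to 0.19 for Tlr3, -0.60 to 0.0051 for Tlr7, -1.45 to 0.52 for Cd14, -0.24 to 0.25 for Myd88, -0.41 to 0.24 for Clec7a and -0.48 to 0.45 for Tlr13. Tlr1 was 0.13 with the macrophage covariate and had no value with a filter at 5 CPM. The Tlr2 ratio to macrophage markers was -0.17 with Cd68 and Csf1r only, and -0.35 to 0.35 with 1 library left out. The cause of these shifts was not tested. The other receptor and named pathway genes kept their direction under every alternative that gave a value. Adipoq, Il1b, the marker genes and the genes most like Tlr2 were not recomputed under the alternatives.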
